A study of Mus musculus with 6 samples.

Results

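Dendritic cell genes were followed in bone marrow cells of mice with and without a Cre driver against Ppp2ca, which encodes the chief catalytic chain of protein phosphatase 2A. The set holds 10 genes of 52550 listed per library, taken by gene symbol: Siglech, Tcf4, Ly6d and Ccr9 for plasmacytoid dendritic cells, Xcr1, Clec9a and Batf3 for type 1 conventional dendritic cells (cDC1), Cd209a for type 2 cells (cDC2) and monocyte-derived cells, and Itgax and Zbtb46 for conventional dendritic cells in general. Messenger RNA was sequenced from 3 wild-type (WT) libraries, genotype Ppp2caf/f, and 3 knockout (KO) libraries, genotype VAV1crePpp2caf/f. Both groups thus carried floxed Ppp2ca alleles, and the KO group alone is named with a Cre, whose Vav1 promoter is active in blood cells at large and so not in stem cells alone. The labels call all samples hematopoietic stem cells. Age, sex and the sorting markers are not given in the sources used here. Whether each library is one animal is not stated either, so p-values cover only the spread among these 6 libraries, which may be technical.

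Dendritic cells take up antigen and present it to T cells. Plasmacytoid dendritic cells secrete type I interferon on sensing nucleic acids, and their identity depends on the transcription factor TCF4 (E2-2), which binds E-box sequences. Conventional dendritic cells divide into cDC1, which depend on IRF8 and BATF3 and cross-present antigen, and cDC2, which depend more on IRF4 and related factors. All arise in the marrow from FLT3-expressing progenitors. Several of the 10 genes are not used by dendritic cells alone: Tcf4 is also read in stem and progenitor cells, Ly6d and Ccr9 in lymphoid progenitors, and Itgax in macrophages and NK cells.

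The values are read counts per gene divided by one size factor per library, called normalised reads here, from libraries of 37951985 to 58692037 reads over genes. Ppp2ca itself stood at 32909, 33451 and 33169 normalised reads in WT and at 23728, 22419 and 24046 in KO, which is 70.5% of the WT mean (log2 fold change −0.50, adjusted p = 0.00268). These values count reads per gene and not per exon, so they do not measure how far the floxed part was deleted. The label of the cells was checked against 12 stem cell markers, among them Hlf, Procr and Kit. All 12 were read in every WT library, and 11 were lower in KO, where 13.0% of all tested genes were lower. Ly6a was the one not called (613 in WT and 480 in KO). Reads of these markers do not show that the libraries held stem cells alone. In WT, Ly6c2 of monocytes averaged 43199 and Nkg7 of T and NK cells 34159, beside 25717 for Kit and 42732 for Cd34.

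Of the 10 dendritic cell genes, 7 were lower in KO and 0 were higher (limma on log2(value + 1), Benjamini-Hochberg adjusted p below 0.05 over 20136 tested genes). Over all tested genes, 13.0% were lower and 10.3% were higher by the same rule. At an unadjusted p below 0.05, 8 of the 10 were lower and 0 higher, and edgeR and DESeq2 on whole reads recovered from the values also called 7 lower and 0 higher each. Those tools called 14.9% and 15.2% of the genes they tested lower, and 12.4% and 12.5% higher. The called genes were Siglech, Tcf4, Ly6d, Ccr9, Clec9a, Cd209a and Zbtb46, that is all 4 plasmacytoid genes, 1 of 3 cDC1 genes, Cd209a and 1 of 2 general conventional genes. The median log2 fold change was −2.21, against −0.02 over all tested genes. In these 7 genes every KO value lay below every WT value, as it did in 21.7% of all tested genes, and in the other 3 the groups overlapped. All 10 genes passed the filter, a value of 1 or more in 3 or more libraries. For Siglech, Ly6d and Cd209a the 3 WT libraries and 1 KO library met it, so these genes were in the test through the group in which they were high. In bulk RNA, fewer cells of a type and less RNA per cell cannot be told apart.

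**Figure D1:**
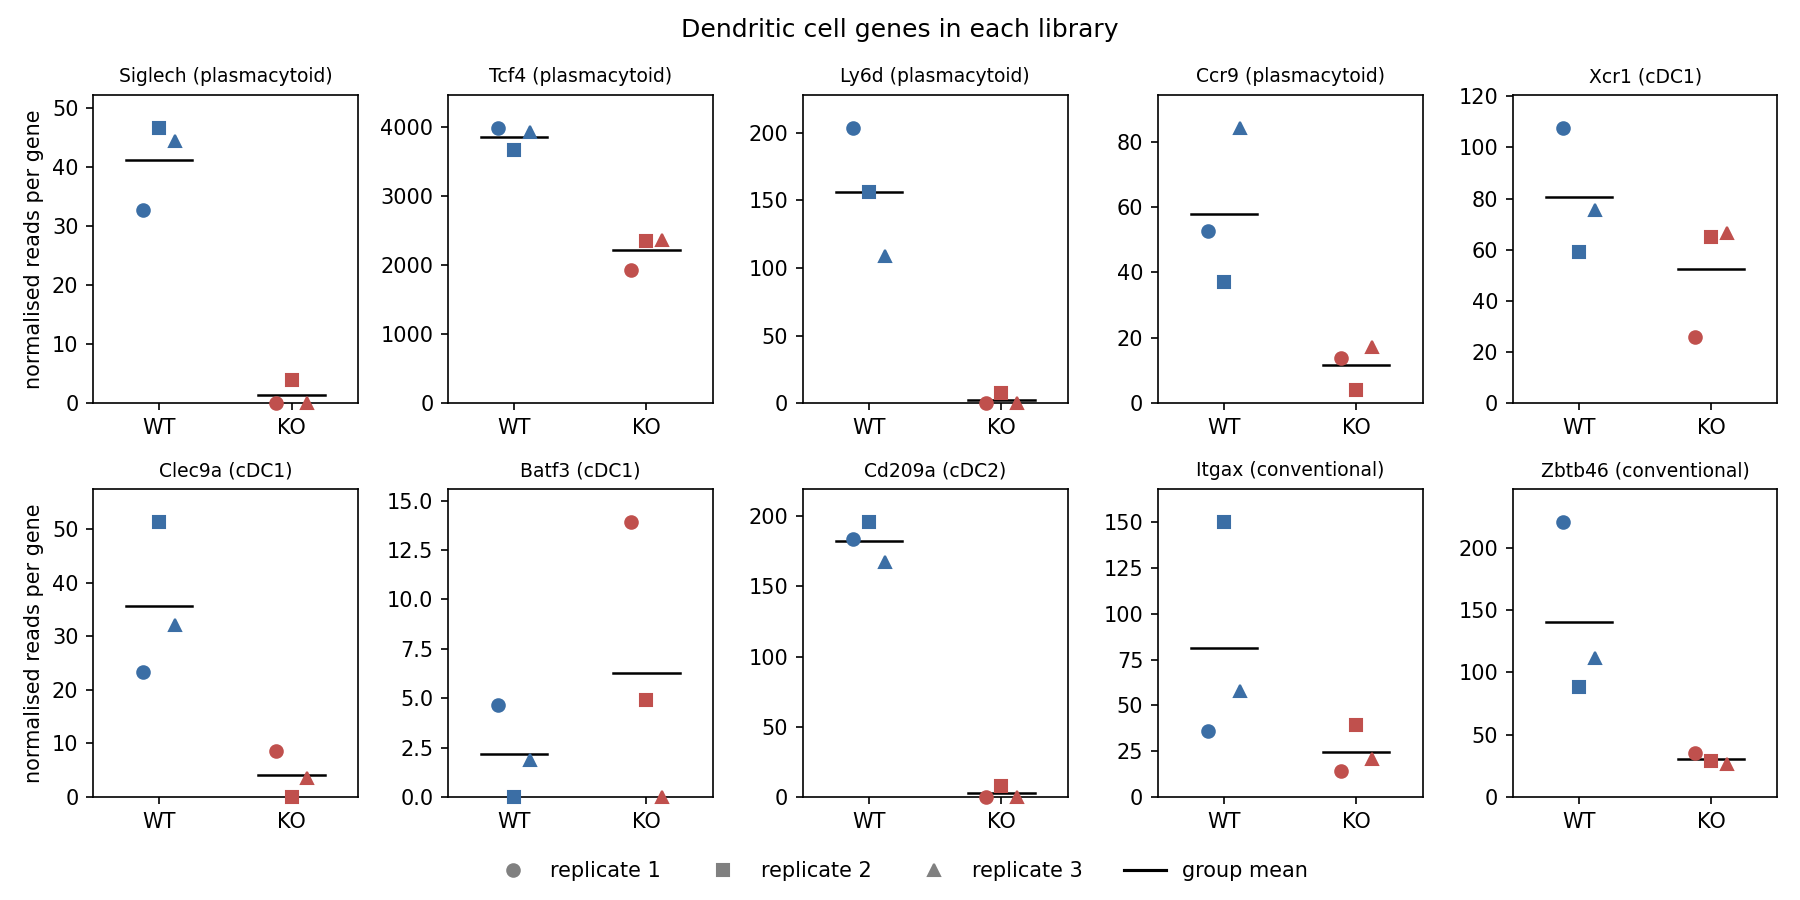
Normalised reads per gene (vertical axis, linear and starting at 0, with its own scale in each panel) of the 10 dendritic cell genes in the 3 WT and 3 KO libraries. Symbols mark the replicate and bars the group mean. Groups are apart in 7 panels and overlap for Xcr1, Batf3 and Itgax, and KO replicate 2 is the one KO library above 0 for Siglech, Ly6d and Cd209a.

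Siglech encodes Siglec-H, a sialic acid-binding surface receptor that marks mouse plasmacytoid dendritic cells (ENSMUSG00000051504.18, GRCm38 chromosome 7, 55768178 to 55778925, plus strand). It had 32.8, 46.6 and 44.5 normalised reads in WT and 0, 3.93 and 0 in KO. The KO value of 3.93 rested on 4 reads in replicate 2, and the other two KO libraries held none, which allows up to 3 reads in each. The WT mean was 41.3 ± 7.47 and the KO mean 1.31 ± 2.27 (SD, n = 3 each), with a log2 fold change of −4.62 ± 0.77 (SE, adjusted p = 0.00552). Pooling reads within groups, KO stood at 3.07% of WT, with an exact 95% interval of 0.824% to 8.07% that covers counting error only.

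Ly6d, a GPI-anchored surface protein of plasmacytoid precursors and of B cell-directed lymphoid progenitors (ENSMUSG00000034634.7, chromosome 15, 74762056 to 74763620, minus strand), showed the same pattern. Its WT values were 204, 156 and 109, and its KO values 0, 7.86 and 0. Again KO replicate 2 alone held reads, 8 of them. The mean fell from 156 ± 47.4 to 2.62 ± 4.54, a log2 fold change of −6.20 ± 0.90 (adjusted p = 0.00334). Pooled KO reads stood at 1.68% of WT (exact 95% interval 0.722% to 3.34%).

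Ccr9, the chemokine receptor that directs plasmacytoid dendritic cells and T cells to the gut and thymus (ENSMUSG00000029530.16, chromosome 9, 123678439 to 123784330, plus strand), was the least firm of the 4. It read 52.6, 37.1 and 84.2 in WT and 13.9, 3.93 and 17.3 in KO. No KO value reached the lowest WT value, and KO stood at 20.2% of the WT mean (log2 fold change −2.34 ± 0.64, adjusted p = 0.0342). Leaving out WT replicate 1, 2 or 3 or KO replicate 2 ended the call, and over all alternatives the adjusted p reached 0.108. In the annotation used, 18.8% of its exon bases also belong to a non-coding gene on the opposite strand and 2.62% to the lincRNA Gm17200 on the same strand. The group means of Gm17200 were 279 for WT and 347 for KO, a difference that missed the threshold (log2 fold change 0.31, adjusted p = 0.273), and whether counting used the strand was not stated.

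Tcf4, the E-box factor named above (ENSMUSG00000053477.16, chromosome 18, 69343356 to 69689079, plus strand), had the most reads of the set and the smallest fall among the called genes. WT libraries held 3979, 3660 and 3917 normalised reads and KO libraries 1924, 2347 and 2361. The groups were far apart relative to their spread, with means of 3852 ± 169 and 2210 ± 248. KO kept 57.4% of the WT level (log2 fold change −0.81 ± 0.11, adjusted p = 0.00272).

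Among the cDC1 genes, Clec9a alone passed the test. It encodes DNGR-1, a receptor for actin filaments exposed by dead cells (ENSMUSG00000046080.17, chromosome 6, 129408862 to 129424763, plus strand). WT values were 23.4, 51.4 and 32.2 and KO values 8.57, 0 and 3.45, from 12 reads in KO in all. The groups did not overlap, and KO stood at 11.2% of the WT mean (log2 fold change −3.32 ± 0.88, adjusted p = 0.0308). The call was lost in 8 of 18 alternatives, among them those without WT replicate 1, 2 or 3 or KO replicate 3, and the adjusted p reached 0.0950. Clec1b, a neighbouring lectin receptor gene of platelets on the same strand, shares 5.59% of the exon bases of Clec9a. Clec1b averaged 128 in WT and 87.7 in KO, with overlapping groups (log2 fold change −0.58, adjusted p = 0.325).

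Xcr1, the receptor for the T cell chemokine XCL1 and a surface mark of cDC1 (ENSMUSG00000060509.4, chromosome 9, 123852315 to 123862029, minus strand), did not pass. It read 108, 59.0 and 75.7 in WT and 25.7, 64.8 and 66.4 in KO. KO replicate 1 was low, while KO replicates 2 and 3 lay within the WT range. The log2 fold change was −0.69 ± 0.48 (95% confidence interval −1.80 to 0.42, adjusted p = 0.353). Without KO replicate 1 it was −0.25.

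Batf3, the transcription factor on which cDC1 depend (ENSMUSG00000026630.9, chromosome 1, 191097847 to 191108945, plus strand), was barely read. It had 4, 0 and 2 reads in WT and 13, 5 and 0 in KO, or 4.68, 0 and 1.89 against 13.9, 4.91 and 0 normalised reads. The difference did not pass the test (log2 fold change 0.81 ± 1.15, 95% confidence interval −1.85 to 3.47, adjusted p = 0.666), and the sign turned without KO replicate 1 (−0.06).

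Cd209a, a DC-SIGN-related lectin receptor that marks cDC2 and monocyte-derived dendritic cells (ENSMUSG00000031494.7, chromosome 8, 3743397 to 3748984, minus strand), had the most negative fold change of the 10. WT libraries held 184, 196 and 167 normalised reads. KO libraries held 0, 7.86 and 0, again with all 8 reads in replicate 2. The WT mean was 182 ± 14.3 and the KO mean 2.62 ± 4.54, with a log2 fold change of −6.47 ± 0.87 (adjusted p = 0.00261). Pooled KO reads stood at 1.41% of WT (exact 95% interval 0.606% to 2.80%). None of its 50-base stretches occurs in a transcript of another gene, paralogs included. Of the 6 paralogs, Cd209b and Cd209c had 0 reads in all libraries, and Cd209d, Cd209e, Cd209f and Cd209g had 0 in every KO library. In the WT libraries Cd209d had 0, 9 and 9 reads, Cd209e 8, 0 and 0, and Cd209g 9, 27 and 0, so their groups overlapped. Cd209f, with 10.5, 59.0 and 19.9 in WT, was the one paralog that passed the filter, through the WT libraries alone, and set against 3 reads for each KO library it was at least 10.2-fold lower in KO.

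Zbtb46, a zinc finger repressor of committed conventional dendritic cells and their precursors that is also read in endothelium and erythroid progenitors (ENSMUSG00000027583.13, chromosome 2, 181387762 to 181459426, minus strand), fell in KO. WT values were 221, 88.5 and 112, and KO values 35.4, 28.5 and 26.7. WT libraries spread over more than 2-fold while KO libraries were close together, and the groups did not overlap. KO stood at 21.5% of the WT mean (log2 fold change −2.08 ± 0.43, adjusted p = 0.0122).

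Itgax, which encodes the integrin CD11c (ENSMUSG00000030789.9, chromosome 7, 128129547 to 128150657, plus strand), read 36.3, 150 and 57.7 in WT and 13.9, 39.3 and 20.7 in KO. WT replicate 2 was far above the others, and the highest KO library exceeded the lowest WT library. The log2 fold change of −1.55 ± 0.63 passed at an unadjusted p of 0.0409 and not after adjustment (adjusted p = 0.121). Without WT replicate 2 it was −0.99. Of its 50-base stretches, 8.02% also occur in transcripts of the related integrin gene Itgad, which averaged 92.3 in WT and 45.1 in KO (adjusted p = 0.149).

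**Figure D2:**
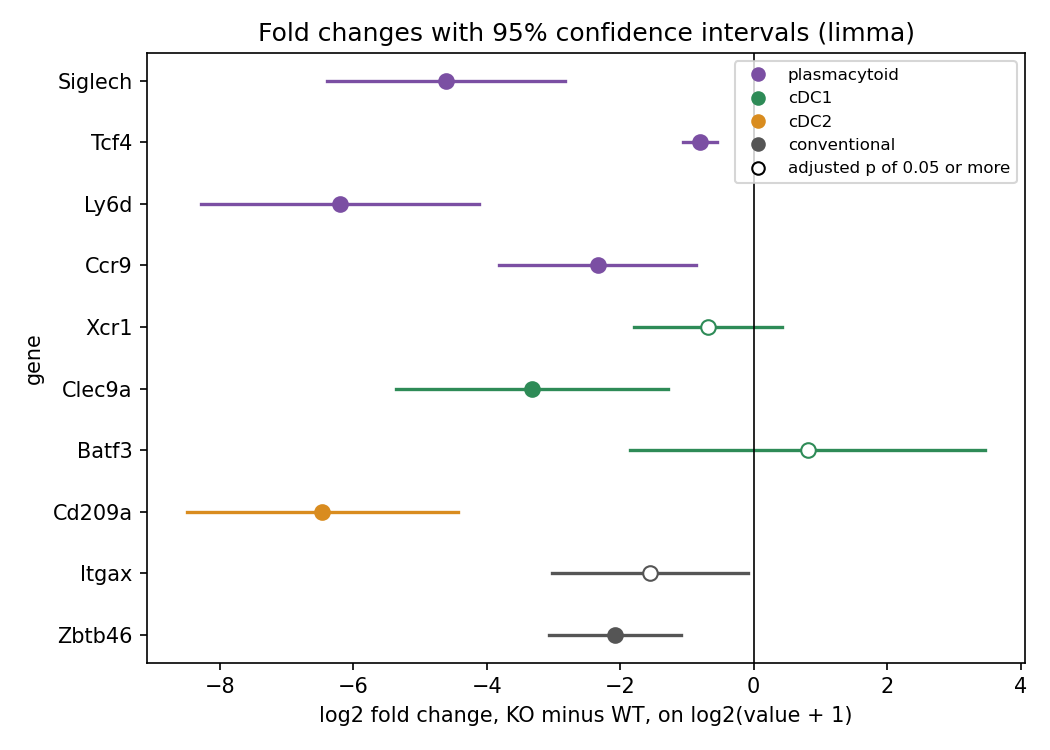
Log2 fold change of KO against WT on the log2(value + 1) scale (horizontal axis) with its 95% confidence interval for each of the 10 genes, coloured by subset. Filled points passed the adjusted threshold: all 4 plasmacytoid genes, Clec9a, Cd209a and Zbtb46. Tcf4 had the narrowest interval and Batf3 the widest, from −1.85 to 3.47.

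KO replicate 2 differed from the other KO libraries in the 3 genes with the most negative fold changes. Siglech, Ly6d and Cd209a were at 0 in KO replicates 1 and 3 and had 4, 8 and 8 reads in KO replicate 2. Without that library, and against a floor of 3 reads in each remaining KO library, Siglech was at least 14.2-fold, Ly6d at least 53.8-fold and Cd209a at least 62.8-fold lower than in WT. KO replicate 2 was not the highest KO library throughout: it was so for those genes and Itgax, while KO replicate 1 was highest for Clec9a, Batf3 and Zbtb46 and KO replicate 3 for Tcf4, Ccr9 and Xcr1.

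**Figure D3:**
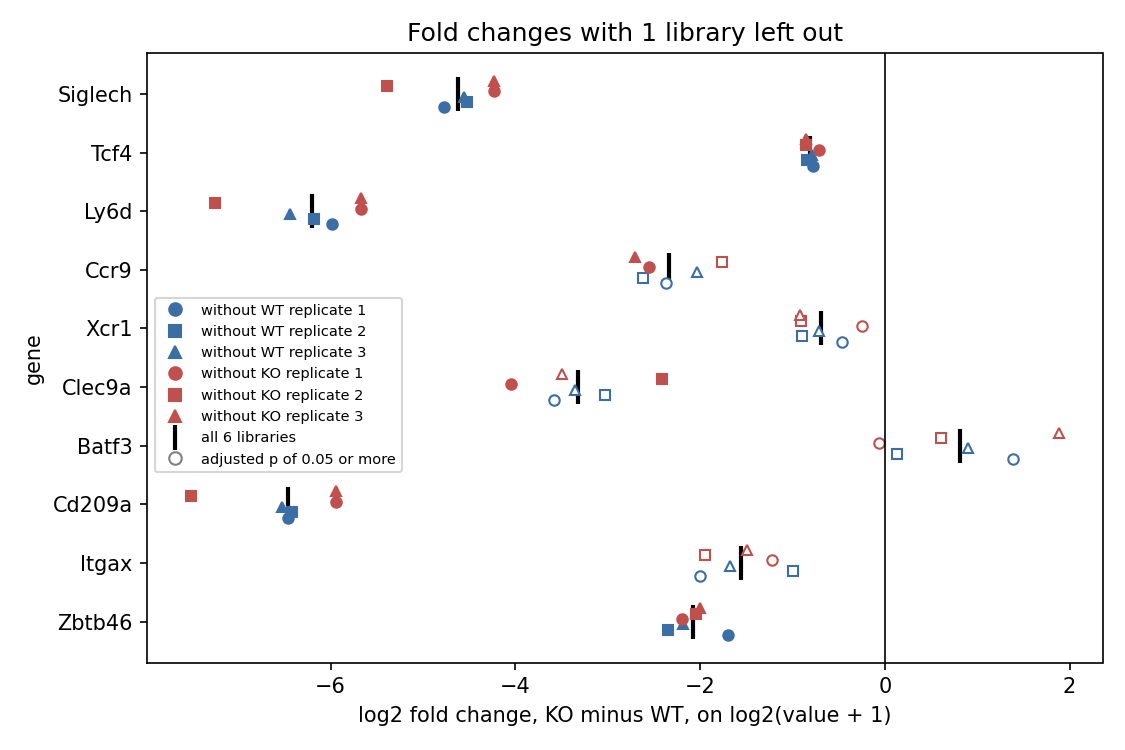
Log2 fold change of each gene (horizontal axis) with all 6 libraries (vertical bars) and with 1 library left out (points, by group and replicate). Open points did not pass the adjusted threshold. Siglech, Tcf4, Ly6d, Cd209a and Zbtb46 passed in all 6 reduced fits, Ccr9 and Clec9a each in 2, and Xcr1, Batf3 and Itgax in none.

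Levels were compared between genes per kilobase of merged exons. In WT the order ran from Ly6d (210 ± 63.7 normalised reads per kilobase, SD) over Tcf4 (141 ± 6.18) and Cd209a (115 ± 9.05) to Xcr1 (18.1), Itgax (17.0), Zbtb46 (16.5), Siglech (12.2), Clec9a (10.8), Ccr9 (5.65) and Batf3 (1.37). The WT ranges of neighbours were apart among the first 4 genes and between Ccr9 and Batf3, and those of all neighbours from Xcr1 to Ccr9 overlapped. In KO, Tcf4 came first (80.7 ± 9.07 per kilobase), apart from Xcr1 (11.8 ± 5.18), and all further neighbours overlapped. Ly6d moved from first to sixth place and Cd209a from the third to seventh. Merged exons of Tcf4 span 27.4 kilobases over many isoforms, so its level per kilobase of any one transcript is understated on this scale.

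Promoter sequence was searched because members of several subsets fell together. RefSeq promoters (GRCm38.p6, 250 bases before to 50 after the start) were found for 8 of the 10 genes, all but Tcf4 and Ly6d. The motifs, on both strands, were the E-box CAGNTG bound by E proteins such as TCF4, the AP-1 and BATF site TGANTCA, the PU.1 core GAGGAA and an interferon response core of 2 GAAA runs spaced by 2 bases. The E-box letters stood in 6 of 8 promoters, against 51.4% of all 32851 promoters of that length. TGANTCA stood in 2 (7.81% of all), GAGGAA in 2 (28.3%) and the interferon response core in 0 (3.44%). The 4 promoters shown are those of called genes from the plasmacytoid, cDC2 and general conventional groups that hold an E-box match. Clec9a, the called cDC1 gene, also holds a match and is not shown. Each runs 5′ to 3′ on the gene's strand, with motif matches in capitals, and no matches overlap in them.
Siglech, chr7:55767934-55768233, plus strand: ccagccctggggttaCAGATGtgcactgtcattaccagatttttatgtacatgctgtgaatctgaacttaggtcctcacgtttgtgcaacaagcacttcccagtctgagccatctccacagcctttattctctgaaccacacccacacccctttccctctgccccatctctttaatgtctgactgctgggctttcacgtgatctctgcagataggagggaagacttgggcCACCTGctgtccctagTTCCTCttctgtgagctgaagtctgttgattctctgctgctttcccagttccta
Ccr9, chr9:123766961-123767260, plus strand: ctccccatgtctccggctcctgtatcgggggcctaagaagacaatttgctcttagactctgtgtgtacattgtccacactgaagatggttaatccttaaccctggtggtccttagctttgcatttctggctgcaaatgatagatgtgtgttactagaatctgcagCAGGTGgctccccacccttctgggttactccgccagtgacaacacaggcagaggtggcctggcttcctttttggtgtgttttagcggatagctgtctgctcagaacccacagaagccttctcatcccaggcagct
Cd209a, chr8:3748935-3749234, minus strand: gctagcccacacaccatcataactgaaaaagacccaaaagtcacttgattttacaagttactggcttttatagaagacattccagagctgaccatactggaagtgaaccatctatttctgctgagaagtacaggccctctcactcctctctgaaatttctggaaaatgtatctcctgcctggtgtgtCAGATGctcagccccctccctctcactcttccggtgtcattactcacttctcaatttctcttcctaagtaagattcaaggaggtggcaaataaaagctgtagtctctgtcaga
Zbtb46, chr2:181424339-181424638, minus strand: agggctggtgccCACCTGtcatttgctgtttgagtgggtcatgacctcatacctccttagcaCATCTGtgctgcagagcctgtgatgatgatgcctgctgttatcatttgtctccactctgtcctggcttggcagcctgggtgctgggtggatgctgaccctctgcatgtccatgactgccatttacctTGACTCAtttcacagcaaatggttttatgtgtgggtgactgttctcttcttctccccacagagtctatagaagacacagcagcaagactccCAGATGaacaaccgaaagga
In Siglech the capitals mark E-boxes at bases −235 to −230 and −20 to −15 from the start and, on the reverse strand, the PU.1 core at −4 to 2. Ccr9 and Cd209a hold 1 E-box each, at −85 to −80 and at −63 to −58. In Zbtb46 they mark E-boxes at −238 to −233, −188 to −183 and 31 to 36 and the AP-1 and BATF letters at −61 to −55. The Zbtb46 and Ccr9 windows lie well inside the annotated genes, whose outermost 5′ ends are at 181459426 and 123678439. They thus surround other start sites than the outermost. A match of letters is not a binding site, and short motifs occur often.

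Of 20 further plasmacytoid genes, 19 were tested, and 9 were lower, 1 higher and 9 not called in KO. Their median log2 fold change was −0.95. The same fit called 13.0% of all tested genes lower and 10.3% higher. Among the 9 lower genes, Spib and Upb1 had reads in KO replicate 3 alone among the KO libraries. They passed the filter mainly through WT, where they were high. Irf7, which drives interferon transcription, fell from 488 ± 137 to 109 ± 4.05 (−2.10 on the log2 scale, adjusted p = 0.00211). Spib, an ETS factor of plasmacytoid and B cells, read 42.1, 49.5 and 34.1 in WT and 0, 0 and 3.45 in KO (−4.69, adjusted p = 0.00466). Blnk, an adaptor of B cell and plasmacytoid receptor signalling, fell to 16.8% of its WT level and Smim5 to 50.5%. Lair1, a collagen receptor also found on myeloid cells, rose to 152% (0.62, adjusted p = 0.0234), a call made in 12 of 18 alternatives and in 2 of the 6 that leave out 1 library (adjusted p up to 0.0896). Bst2, the surface protein tetherin used to sort plasmacytoid cells, had means of 2152 and 1868 and missed the threshold (adjusted p = 0.417), as did Zeb2, a repressor needed by these cells (6972 and 5202, adjusted p = 0.208).

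Of 17 cDC1 genes, 15 were tested, 3 were lower and 2 higher, where 13.0% of all tested genes were lower and 10.3% higher, and the median log2 fold change was −0.10. Irf8, the factor that specifies cDC1, fell to 47.9% of its WT level, from 14750 ± 3328 to 7069 ± 1152 (−1.05 ± 0.18, adjusted p = 0.00571). The WT mean of Irf8 stood far above those of Xcr1 (80.8) and Clec9a (35.65), and which cells held its reads was not tested. Cd36, a scavenger receptor and lipid transporter, averaged 110 in WT and had no read in KO. With each KO library set to 3 reads, Cd36 was at least 37.7-fold lower there. Cd36 passed the filter through the WT libraries alone and is among the 3 genes called lower. Gcsam fell to 25.8% of WT. Nfil3, a factor upstream in cDC1 development, rose from 1049 ± 77.4 to 2185 ± 335 (1.05, adjusted p = 0.00263), and Cd24a rose to 136% (adjusted p = 0.0454). Cd24a was called in 10 of 18 alternatives and in 2 of the 6 that leave out 1 library, with a log2 fold change of 0.22 and an adjusted p of 0.223 under quantile normalization. Id2, an inhibitor of E proteins, averaged 1670 and 2672 with overlapping groups and did not pass (0.61, adjusted p = 0.207).

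Of 13 cDC2 genes, 12 were tested, 4 were lower and 0 higher, beside 13.0% lower and 10.3% higher over all tested genes. The list median was −0.58. At an unadjusted p below 0.05, 5 were lower and 2 higher, and edgeR called 0 higher and DESeq2 1. Ltb, a lymphotoxin subunit, fell to 10.5% of its WT level (−3.20), Esam, an adhesion molecule of splenic cDC2 that stem cells also carry, to 17.1% (−2.57), and Tmem176a to 67.6% (−0.58). Irf4 was low, with 26.9, 23.8 and 0 in WT and 0, 14.7 and 0 in KO, short of the threshold (adjusted p = 0.469).

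Among 21 genes of dendritic cell growth and maturation, 19 were tested, and 7 were lower and 3 higher. The shares over all tested genes were 13.0% lower and 10.3% higher. Of the 7, Cd40 and Cd83 had reads in KO replicate 3 alone among the KO libraries, so they passed the filter mainly through WT, where they were high. Flt3, the receptor of the growth factor that dendritic cells depend on, fell from 14342 ± 339 to 4787 ± 711 (−1.59 ± 0.12, adjusted p = 0.000428). Progenitors also express Flt3, as stated above, and which cells held its reads was not tested. Dpp4, a surface peptidase, fell to 32.5% and the costimulatory ligand Cd86 to 32.6% of WT. The receptor genes for GM-CSF, a growth factor shared with granulocytes and macrophages, rose: Csf2rb to 305% (1.62) and Csf2ra to 162% (0.70) of WT. Spi1, which encodes PU.1, rose to 147% (0.55, adjusted p = 0.0070).

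**Figure D4:**
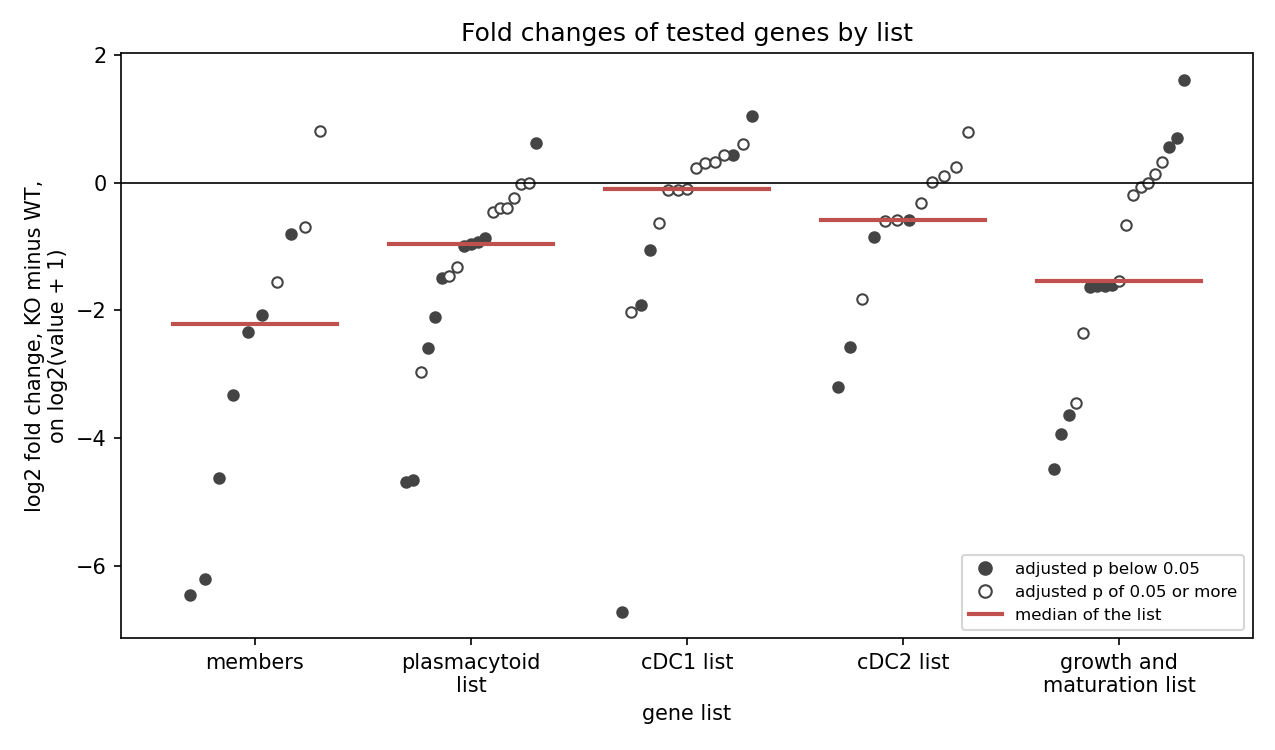
Log2 fold change of KO against WT on the log2(value + 1) scale (vertical axis) for each tested gene of the 10 members and the 4 further lists, sorted within a list. Filled points passed the adjusted threshold, and red bars are list medians, −2.21, −0.95, −0.10, −0.58 and −1.54 from left to right.

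Markers of other cell types were counted in the same fit, in which 13.0% of all tested genes were lower and 10.3% higher. Of 12 B lineage markers, 7 were tested, and Rag2 (353 in WT and 30.6 in KO) was the one called, as lower. Ebf1 and Pax5 had 0 reads in all libraries. Rag1, Ms4a1 and Blk had 0 in every KO library and were not tested. In the WT libraries Rag1 had 5, 0 and 0 reads, Ms4a1 13, 0 and 0, and Blk 5, 0 and 43, so their groups overlapped. The list's summed level was 3018 to 3332 normalised reads in WT and 2304 to 3161 in KO, most of it Cd79b (2632 and 2533). Of 13 monocyte and macrophage markers, 3 were lower (Cx3cr1, Adgre1 and Cd163) and 1 higher (Fcgr1). At an unadjusted p below 0.05, 7 of the 13 were lower and 2 higher. The sum of all 13 was 51060 to 74065 in WT and 56745 to 67053 in KO. Most of it was Ly6c2 (43199 and 49233, adjusted p = 0.360), and no marker was at 0 in a whole group. Of 15 T and NK markers, 11 were tested, 5 were lower (Trbc1, Trbc2, Cd4, Klrb1c and Ncr1) and 1 higher (Nkg7). Their sum was 33887 to 35387 in WT and 41760 to 44013 in KO, most of it Nkg7 (34159 and 42658), while Cd8a had 0 reads throughout. Ncr1, Gzma and Eomes had 0 in KO. In the WT libraries Ncr1 had 5, 5 and 9 reads, and the untested Gzma and Eomes had 5, 32 and 0 and 8, 0 and 0. The 12 stem cell markers summed to 89207 to 98580 in WT and 32039 to 50937 in KO. Median log2 fold changes of tested genes were −1.91 for stem cell, −1.75 for T and NK and −1.54 for monocyte and macrophage markers. Beside −2.21 for the 10 dendritic cell genes, the B lineage median was −0.32. The part of these other cells in the fall of the dendritic cell genes was not tested.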

How the data were processed

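Poly(A) RNA of 3 WT and 3 KO libraries was sequenced. The submitters' processing notes name HISAT2, StringTie, mm8 and mm10, without roles. Counting and strand use are not given in the sources used here. Per gene, the authors deposited one signal value, called expression in the file headers. All values (100%) were whole multiples of the smallest value of their library within 0.01 read, so whole reads were recovered by division. Coordinates are GRCm38, since start and end matched GENCODE M21 for all 49035 gene identifiers whose version it shares.

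KO was compared with WT by limma 3.58.1 (R 4.3.3, trended eBayes) on log2(value + 1) for the 20136 genes at 1 or more in 3 or more libraries. P-values were two-sided and Benjamini-Hochberg adjusted over these genes, with 0.05 as threshold. This scale understates changes of low genes. Genes at 0 in KO, such as Cd36, Cd209f and Ncr1, passed the filter through WT alone, and counts of lower genes include them. Spib, Upb1, Cd40 and Cd83, at 0 in KO replicates 1 and 2, passed mainly through WT, as did other genes of the lists. The procedure was tested on simulated data in which only genes of higher WT level were changed. Siglech, Clec9a and Batf3 lay below that level, so the simulation does not cover genes near 0 in KO. Alternatives were limma without the trend, robust or with library quality weights, other scalings, a pseudocount of 0.1, other filters, a replicate block, leaving out each library, and edgeR 4.0.16 and DESeq2 1.42.0 on recovered reads. Intervals from reads and floors of 3 reads cover counting error only, since reads carry no molecular identifiers.

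The members, gene lists and motifs were chosen with earlier results of these data known. Named are the 10 members, Ppp2ca, 9 dendritic cell genes whatever their p, up to 3 genes called in each direction with the smallest p of each further list, the Cd209 paralogs, and of other cell types the marker highest in WT and markers at 0. Called markers of other cell types, Ly6a, Cd34, Upb1, Cd40, Cd83 and genes sharing exons or sequence with a member were named after their values were seen. One stem cell marker of the planned list is not reported here.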

Additional observations from a re-analysis of the deposited data

How the results depend on the processing

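Siglech, Tcf4, Ly6d, Cd209a and Zbtb46 kept their direction and their call in all 18 alternatives, and 5 to 8 of the 10 members were called lower, with 0 called higher in any, while 8.15% to 18.0% of all genes were lower. Ccr9 was not called without the intensity trend (log2 fold change −2.34), with quantile normalization (−1.96) or without a filter (−2.34), and ran from −2.70 to −1.76 with 1 library left out. Clec9a was not called without the trend (−3.32), with quantile normalization (−2.99) or with a pseudocount of 0.1 (−4.54), and ran from −4.05 to −2.42 with 1 library left out. Itgax was called with library quality weights (−1.86). Batf3 turned to −0.488 with those weights and ran from −0.064, without KO replicate 1, to 1.89, without KO replicate 3. Cd79b ran from −0.175 without KO replicate 1 to 0.052 without KO replicate 2, where its sign turned. The cause was not tested, except that fits with fewer libraries have fewer samples.

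Genes called higher numbered 1071 without the trend and 3198 with library quality weights, against 2069. With 1 library left out, 1565 to 2604 genes were lower and 993 to 1787 higher. Plasmacytoid list genes called higher numbered 0 without the trend and 0 to 1 with 1 library left out, and cDC1 list genes 1 without the trend, with quantile normalization, with a pseudocount of 0.1 or without a filter, and 1 to 2 with 1 library left out. Called lower without the trend were 2 cDC2 and 3 growth and maturation genes, and 2 to 4 and 3 to 8 with 1 library left out. Of the cDC2 list, 2 genes were higher with library quality weights, 1 with DESeq2 and 0 to 1 with 1 library left out. Scalings moved the median of all genes by 0.10 at most, from −0.02 to 0.08 with quantile normalization.

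With the replicate number as a block, 2157 genes were lower and 1705 higher, 6 of the 10 members were called lower, Clec9a was not called (log2 fold change −3.32, adjusted p = 0.0611) and 0 plasmacytoid list genes were higher. Same-numbered libraries did not deviate together (correlations of −0.023, −0.011 and −0.021). The labels do not say whether a number marks a shared animal or day, and these values cannot settle it. Depth limits Siglech, Ly6d, Cd209a, Clec9a and Batf3, whose KO libraries held 4, 8, 8, 12 and 18 reads in all.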
